A study of Mus musculus with 20 samples.

Results

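Lymphatic endothelial cells (LECs) of mouse ear skin were compared between ZT1 and ZT7, that is between 1 h and 7 h of zeitgeber time, counted from the onset of light. The comparison was made up of the 5 libraries labelled ZT1 and the 5 libraries labelled ZT7, taken by their titles, which were 10 of the 20 libraries of the series. The remaining libraries were labelled ZT13 and ZT19 and entered the fit to share its estimate of the spread. All groups were wild type C57BL/6 mice at postnatal day 56, and the labels name no treatment for any of them. Each library came from live CD31+podoplanin+ cells sorted from the pooled ears of a pair of mice, so n counts pools and p-values measure the spread between pools. The question was which transcripts of the dermal lymphatic vessel differ between early morning and midday, both within the light phase of nocturnal animals.

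In the molecular clock, CLOCK or NPAS2 together with BMAL1 (encoded by Arntl) binds E-boxes and drives the genes of its own repressors, the period and cryptochrome proteins. The nuclear receptors REV-ERBα and REV-ERBβ (Nr1d1 and Nr1d2) repress Arntl, and RORs activate it through the same element. The bZIP factors DBP, TEF and HLF activate genes through the D-box, which the repressor NFIL3 also binds. In peripheral tissues Dbp, Ciart, Nr1d1 and Per3 are among the transcripts with the steepest daily slopes, and Arntl runs opposite to them. LECs line the vessels that drain the skin and are entered by dendritic cells on their way to the lymph node.

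The promoters of 4 clock genes are shown because the text turns on them: Dbp, the repressors Ciart and Per3, which had an unadjusted p under 0.05, and Arntl, the activator that runs opposite to them. Sequences are from RefSeq in the build GRCm38.p6 and run from 250 bases before to 50 bases after the start of transcription, 5′ to 3′ on the strand of the gene. Capitals mark the matches to the motifs searched.

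Dbp (chr7:45704997-45705296, plus strand): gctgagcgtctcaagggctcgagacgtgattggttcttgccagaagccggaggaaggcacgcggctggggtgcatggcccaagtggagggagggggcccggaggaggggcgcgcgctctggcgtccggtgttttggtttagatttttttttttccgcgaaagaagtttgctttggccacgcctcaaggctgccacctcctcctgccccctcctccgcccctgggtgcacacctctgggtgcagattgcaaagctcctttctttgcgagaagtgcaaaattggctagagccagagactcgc

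Ciart (chr3:95882179-95882478, minus strand): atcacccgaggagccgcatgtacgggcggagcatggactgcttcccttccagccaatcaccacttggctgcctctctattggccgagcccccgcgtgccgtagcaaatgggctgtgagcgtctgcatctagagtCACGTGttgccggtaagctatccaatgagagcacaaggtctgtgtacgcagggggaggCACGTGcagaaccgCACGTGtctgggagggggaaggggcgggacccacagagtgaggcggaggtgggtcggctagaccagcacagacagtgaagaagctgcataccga

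Per3 (chr4:151044616-151044915, minus strand): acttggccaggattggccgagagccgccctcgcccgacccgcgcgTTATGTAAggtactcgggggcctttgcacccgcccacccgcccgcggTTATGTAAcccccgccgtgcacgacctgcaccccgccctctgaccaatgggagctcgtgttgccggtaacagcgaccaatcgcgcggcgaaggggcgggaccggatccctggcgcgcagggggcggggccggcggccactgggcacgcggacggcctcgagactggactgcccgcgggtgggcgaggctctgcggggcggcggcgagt

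Arntl (chr7:113207261-113207560, plus strand): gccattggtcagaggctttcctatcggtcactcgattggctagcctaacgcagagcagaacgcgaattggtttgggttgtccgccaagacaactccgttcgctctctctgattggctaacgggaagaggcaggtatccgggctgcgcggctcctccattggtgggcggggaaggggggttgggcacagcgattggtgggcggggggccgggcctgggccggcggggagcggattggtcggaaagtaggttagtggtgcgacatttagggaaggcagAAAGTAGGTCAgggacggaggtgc

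Of the 19 clock genes described, 17 had a promoter in the table, 23 promoters in all. The motifs were the E-box CACGTG, the D-box TTATGTAA or TTACGTAA, the cAMP response element TGACGTCA, the glucocorticoid response element (AGAACA, 3 bases of any kind, TGTTCT) and the REV-ERB and ROR element, each searched on both strands. The E-box was present in 7.15% of all 32851 promoters of this length and in 6 of the 23 clock promoters. The Ciart promoter held 3 E-boxes, starting at -116, -58 and -44, where -1 is the last base before the start. The Per3 promoter held 2 D-boxes, starting at -205 and -158, and the D-box was present in 1.06% of all promoters. Of the 2 Arntl promoters in the table, which overlap, the one shown held 1 REV-ERB and ROR element, starting at 27 after its start, and the other held no match to the motifs searched. This element was present in 0.384% of all promoters. In the Dbp window none of these letters was found. A match describes the sequence only.

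Between 5902909 and 8675905 reads were counted on genes at ZT1 and between 4475111 and 16936960 at ZT7. Uniquely aligned reads, ambiguous ones set aside, divide into those assigned to a gene and those that the counting assigned to no feature. The share assigned to genes was 20.2% to 29.5% at ZT1, and at ZT7 it was 37.7%, 62.3%, 15.5%, 17.5% and 12.7% in replicates 1 to 5. ZT7 replicates 1 and 2 thus stood apart from ZT7 replicates 3 to 5, and they also held fewer detected genes (16147 and 16253 against 20002 to 21540). Expressed as log2 odds, this share differed by 0.13 between the time points, and log2 total counts differed by 0.05 (ZT7 minus ZT1, two-sided exact permutation tests of 5 against 5 libraries, p = 0.865 and p = 0.897, both 0.897 after adjustment over the 2 tests). Of the lymphatic endothelial list, 23 of 24 members were tested. Prox1, the master regulator of lymphatic fate, had normalized counts of 2444 to 4414 at ZT1 and 1647 to 3157 at ZT7, Flt4 (VEGFR-3) 11122 to 16379 at ZT1 and 6252 to 12399 at ZT7, and Lyve1, the hyaluronan receptor of lymphatic capillaries, 15939.5 to 26809 at ZT1 and 6393 to 29894 at ZT7. Ccl21a was listed at 0 in all 10 libraries, and as it has near-identical copies whose reads the counting may leave out, this 0 is not read as absence of expression. The summed normalized count of the list was 119313 to 151739 at ZT1 and 74902 to 146205 at ZT7, so the ranges overlapped.

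Marker transcripts of other skin cells were summed for each cell type, and of these sums only the fibroblast ones separated the time points. The 20 fibroblast markers summed to 13581 to 31163 normalized counts at ZT1 and to 6030 to 12787 at ZT7, without overlap. Averaged as centred log2 normalized counts, the same markers did overlap, with scores of 0.19 to 1.64 at ZT1 and -1.18 to 0.97 at ZT7. The separation of the sums thus depends on the scale. The keratinocyte markers, of which 24 of 25 were listed in the files, summed to 51199 to 94502 at ZT1 and to 79001 to 217408 at ZT7, with the highest sum in ZT7 replicate 2. In bulk samples, fewer cells of a type and less RNA per cell cannot be told apart. The keratinocyte ranges overlapped, as did those of the other lists, with 894 against 633 counts at the lowest for 19 leukocyte markers (highest 1231 and 1389) and 10871 against 8277 for 15 blood endothelial markers (highest 16982 and 16798). The keratinocyte genes Krt5 (8079 to 14876 at ZT1 and 10008 to 27698 at ZT7) and Krt14 (10695 to 30238 at ZT1 and 17130.0 to 56683 at ZT7) were abundant, while Ptprc, which encodes the leukocyte antigen CD45, had 43.3 to 255 at ZT1 and 0 to 144 at ZT7. Of all marker lists, the 4 haemoglobin genes Hba-a1, Hba-a2, Hbb-bs and Hbb-bt, together with Ccl21a, were at 0 in all 10 libraries.

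**Figure D1:**
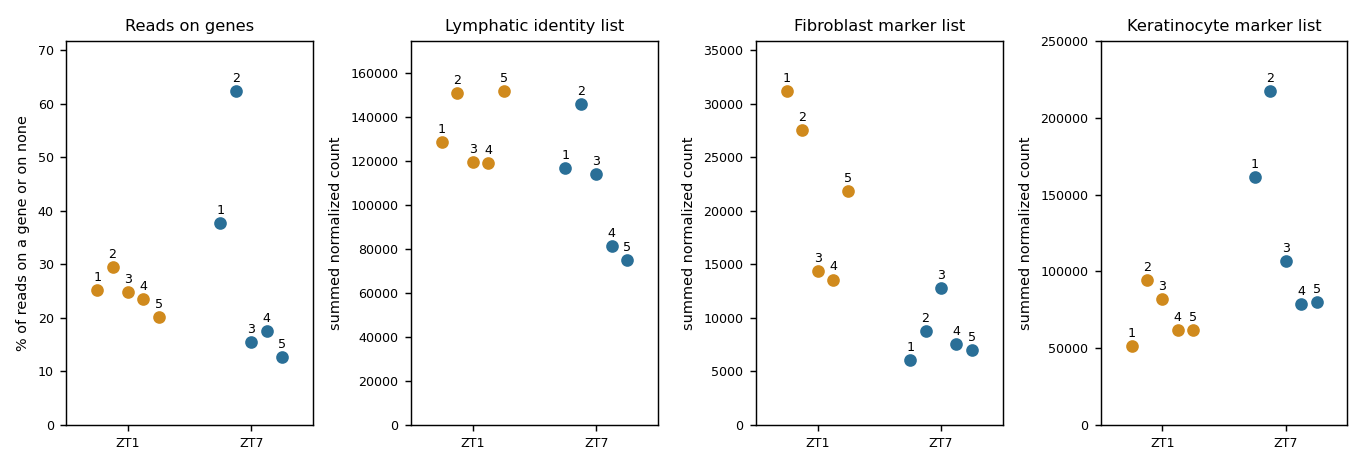
Share of uniquely aligned reads assigned to genes (%), and summed normalized counts of the lymphatic endothelial, fibroblast and keratinocyte lists, by library. Points are libraries and the small numbers are replicates. ZT7 replicates 1 and 2 have the highest shares of reads on genes. The fibroblast sums of the 5 ZT7 libraries (6030 to 12787) lie below those of the 5 ZT1 libraries (13581 to 31163). The mean log2 scores of these markers (not shown) overlapped.

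Of 19209 genes tested with edgeR's quasi-likelihood test, 1 gene, Ccdc80, differed at an adjusted p under 0.05 (0.00521%). At an unadjusted p under 0.05 there were 955 genes (4.97%), of which 150 were higher at ZT7 (0.781%) and 805 lower (4.19%). This balance depended on the scaling, with 364 higher and 385 lower under upper quartile normalization and 442 and 609 with DESeq2, so the shares hold for TMM only. All 5 ZT7 libraries lay above all 5 ZT1 libraries for 111 genes (0.578%) and below them for 225 genes (1.17%). The median log2 fold change of all genes was 0.05, with 52.5% of genes above 0. With DESeq2 14 genes were called (0.137% of 10213 with an adjusted p), 6 higher (0.0587%) and 8 lower (0.0783%), and these were Dbp, Igfbp3, Cltb, Krt15, Gcat, 3110040N11Rik, Ccdc80, Enpp2, Top2a, Sparc, Cpe, 5730409E04Rik, Myoc and S100b. When ZT1 and ZT7 were fitted alone, edgeR called 1 gene and DESeq2 108 (0.77% of 14031). With limma-voom and sample weights, 8 genes were called (0.0416%), 3 of them higher (0.0156%), Dbp and Krt15 included, and 5 lower (0.026%), namely Ccdc80, Cpe, Gpx3, Krt79 and Scd1.

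Dbp, the D-box activator, showed the clearest separation among the clock genes (chromosome 7, 45705088 to 45710203, plus strand). Its normalized counts in replicates 1 to 5 were 246, 305, 211, 203 and 220.3 at ZT1 and 787, 898, 891, 738 and 516 at ZT7. Every ZT7 library exceeded every ZT1 library, and the mean was 237 ± 41.5 at ZT1 and 766 ± 156 at ZT7 (SD, n = 5). The log2 fold change was 1.69 ± 0.32 (SE), the second smallest p of all genes, with an adjusted p of 0.129 in edgeR. DESeq2, limma-voom, upper quartile normalization, a filter of 50 counts and the covariate for reads on genes each brought Dbp past the threshold, with log2 fold changes of 1.82, 1.71, 1.89, 1.81 and 1.67. In 18 of 24 alternatives Dbp did not pass, with an adjusted p of 0.127 to 0.487 when each library was left out, 0.0700 with RLE size factors and 0.151 with the marker scores as covariates. Of the related activators, Hlf had a log2 fold change of 0.85 ± 0.42, with 224 to 629.8 at ZT1 and 481 to 863 at ZT7, and Tef one of 0.35 ± 0.32. Nfil3, the repressor at the same element, had 305, 753, 186, 340.5 and 508 at ZT1 and 176, 284, 142, 285 and 129 at ZT7. The 2 time points overlapped for Nfil3, and its log2 fold change was -1.04 ± 0.43 (adjusted p = 0.899).

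Among the 10 repressors of the clock, 7 had a positive log2 fold change (52.5% of all genes), 2 of these had an unadjusted p under 0.05 (0.781% of all genes), and none passed the adjusted threshold. Ciart, a repressor that binds BMAL1 and CLOCK, had normalized counts of 178, 109, 46.6, 34 and 141 at ZT1 and 285, 688, 171, 203 and 274 at ZT7. The lowest ZT7 library lay just under the highest ZT1 library, so the groups overlapped by this pair only, and the log2 fold change was 1.68 ± 0.56 (adjusted p = 0.775). Per3 had 905, 783, 1153, 684 and 984 at ZT1 and 2045, 1361, 1483, 934 and 1339 at ZT7, with a log2 fold change of 0.67 ± 0.30. ZT1 replicates 3 and 5 and ZT7 replicate 4 made the Per3 ranges overlap. Nr1d1 had 1133 to 1606 at ZT1 and 1304 to 2479 at ZT7 (log2 fold change 0.51 ± 0.33), and Nr1d2 574 to 1099 at ZT1 and 847 to 1712 at ZT7 (0.59 ± 0.32).

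The period genes Per1 and Per2 had log2 fold changes of 0.58 ± 0.41 and 0.43 ± 0.51. Per1 spanned 413 to 860.3 at ZT1 and 426 to 1549 at ZT7, and Per2 57.5 to 325 at ZT1 and 98.3 to 391 at ZT7, so that both overlapped widely. The log2 fold change of Bhlhe40, an E-box repressor, was 0.56 ± 0.39, and it was -0.41 for Cry1, -0.14 for Cry2 and -0.19 for Bhlhe41, all within 1 SE of 0. The median of the 10 repressors was 0.54, against 0.05 over all genes. Without ZT7 replicates 1 and 2, or without ZT1 replicates 2 and 5, 1 repressor had an unadjusted p under 0.05 and was higher, as were 0.436% and 0.512% of all genes in these fits.

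Of 5 activators, 3 had a negative log2 fold change and the median was -0.61. Arntl had 377, 196, 322, 452 and 596 at ZT1 and 146, 405, 182, 159 and 196 at ZT7. The second ZT7 library was higher than 3 of the 5 ZT1 libraries while the other ZT7 libraries were under 200 normalized counts, and the log2 fold change was -0.83 ± 0.52 (adjusted p = 0.999). Clock had 1046 to 2299 at ZT1 and 477 to 1164 at ZT7 (log2 fold change -0.71 ± 0.36). Npas2, Rora and Rorb had 0.21 ± 1.14, 0.04 ± 0.40 and -0.61 ± 1.20, each with an estimate smaller than its SE. The 8 kinases and ubiquitin pathway genes that act on clock proteins had a median of -0.30, and none was called. Gsk3b (-0.76 ± 0.36) and Csnk1e (-0.63 ± 0.30) had an unadjusted p under 0.05 and were lower, as were 4.19% of all genes. Usp2, a deubiquitinase, had -0.65 and Csnk2a1, a casein kinase 2 subunit, -0.67.

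**Figure D2:**
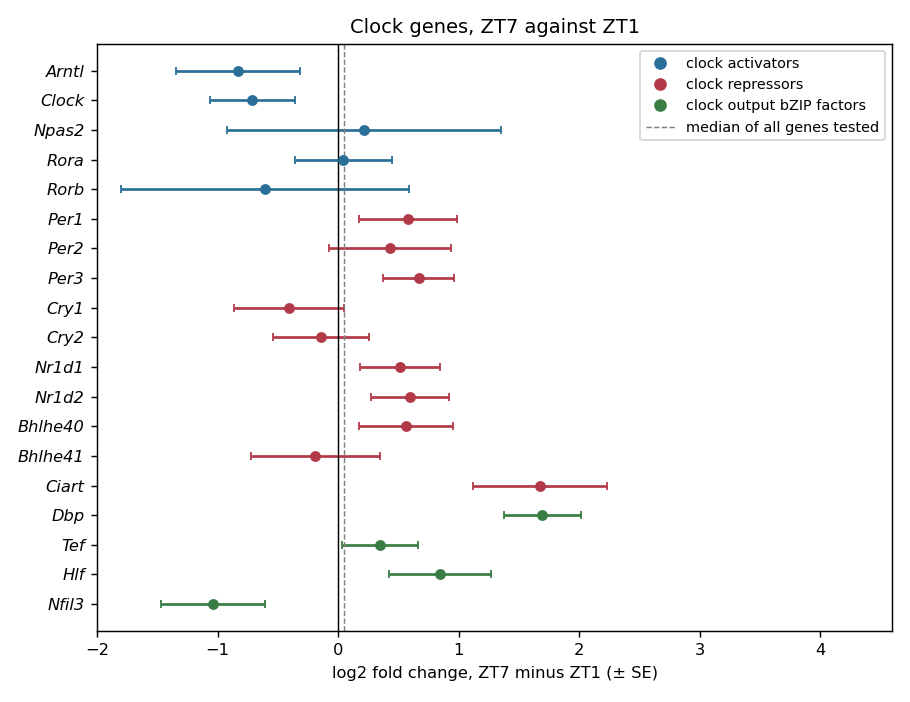
Log2 fold change (ZT7 minus ZT1) with its SE for 5 clock activators, 10 repressors and 4 output factors, with the median of all genes as a dashed line at 0.05. Dbp and Ciart lie farthest to the right, Nfil3 farthest to the left, and none of the 19 passed an adjusted p under 0.05 in edgeR.

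Ccdc80, a secreted matrix-binding protein made by fibroblasts and fat precursors, was the gene that passed (chromosome 16, 45093402 to 45128077, plus strand). Its normalized counts were 2205, 2236, 1684, 1144 and 2744 at ZT1 and 139, 117, 402, 202 and 259 at ZT7. All 5 ZT7 libraries lay below all 5 ZT1 libraries, the mean was 2003 ± 609 at ZT1 and 224 ± 114 at ZT7, and the gene fell by 3.17 ± 0.52 on the log2 scale (adjusted p = 0.0357, lower in 5 of 5 libraries). The adjusted p of Ccdc80 was under 0.05 without ZT1 replicate 4 or ZT7 replicate 3 and between 0.0525 and 0.277 without each of the other 8 libraries in turn, with log2 fold changes from -3.50 to -3.01. It was 0.844 without ZT7 replicates 1 and 2 together (log2 fold change -2.82) and 0.345 without ZT1 replicates 2 and 5 (-2.93). In all, Ccdc80 kept its sign in 24 alternatives and did not pass in 15, which include RLE and upper quartile scaling, the filter of 50 counts and the marker scores. With marker scores for fibroblasts and keratinocytes in the model, its log2 fold change was -2.11 and its adjusted p 0.151. Ccdc80 belongs to the fibroblast marker list, and thus enters the fibroblast score itself. The sum of this list was lower at ZT7.

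Among the genes of at least 50 normalized counts with the smallest p in the downward direction, 11 further genes were named. Enpp2, the enzyme autotaxin, which makes lysophosphatidic acid, had 1509.5, 1585, 1662, 594 and 1896 at ZT1 and 483, 520.2, 446, 278 and 241 at ZT7. The ranges did not overlap, and the fourth ZT1 library was the lowest of its group (log2 fold change -1.88 ± 0.38, adjusted p = 0.193). Top2a, the DNA topoisomerase of dividing cells, had 635, 2716, 2633, 1105 and 1523 at ZT1 and 632, 131, 425, 219.8 and 381 at ZT7. Its ranges touched without overlapping at the first replicates of both time points (log2 fold change -2.27 ± 0.46, adjusted p = 0.193). Cpe (carboxypeptidase E) had 1315 to 4981 at ZT1 and 547 to 1134 at ZT7, Myoc (myocilin) 1060.1 to 4503 at ZT1 and 55.5 to 523 at ZT7, and Eea1, a tether of early endosomes, 899 to 3546 at ZT1 and 512 to 596 at ZT7. The calcium-binding protein gene S100b, a marker of Schwann cells and melanocytes, had 142 to 2378 at ZT1 and 0 to 138 at ZT7. Pde8a, a phosphodiesterase that breaks down cAMP, had 1199, 719.7, 914, 1026 and 1154 at ZT1 and 371, 345, 484, 441 and 592 at ZT7. Every ZT7 library was under 600 and every ZT1 library over 700, and its log2 fold change was -1.17 ± 0.29 (adjusted p = 0.622). Sparc, Npnt (nephronectin), Bcl6b (a transcriptional repressor) and 5730409E04Rik had log2 fold changes of -2.12, -1.94, -1.50 and -2.71.

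In the upward direction, 10 genes are described besides Dbp, and several of them are typical of epithelia. Igfbp3, which binds insulin-like growth factors, had 108, 329, 317, 141 and 119.7 at ZT1 and 617, 1399, 586, 342 and 727 at ZT7. All ZT7 libraries exceeded all ZT1 libraries, and the log2 fold change was 1.86 ± 0.49 (adjusted p = 0.684). Cltb, a clathrin light chain, had 369 to 709 at ZT1 and 841 to 2006 at ZT7 (log2 fold change 1.25 ± 0.34), and Gcat, a mitochondrial enzyme of threonine breakdown, 129 to 246 at ZT1 and 287 to 694 at ZT7 (1.33 ± 0.38). Krt15, the keratin of basal keratinocytes, had 5158, 8962, 7325, 4198 and 7689 at ZT1 and 25959.8, 23562, 17630.1, 10899 and 15318 at ZT7. Its ranges did not overlap, and ZT7 replicates 1 and 2 were the highest (log2 fold change 1.49 ± 0.40). Hopx, Lad1 (ladinin, of the basement membrane zone of skin), Dsg1a (a desmosomal cadherin), Gltp (a glycolipid transfer protein) and Il20rb (a receptor subunit for epidermal cytokines) had log2 fold changes of 1.66, 1.40, 2.22, 1.54 and 1.21, and 3110040N11Rik had 1.46. None of them was called with edgeR. The keratinocyte marker sum was also higher at ZT7 on average, and Krt15 and Dsg1a are themselves members of that list. With the marker scores as covariates none of these genes was called either, and the keratinocyte score includes Krt15 and Dsg1a. The part of keratinocytes in these values was not tested.

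**Figure D3:**
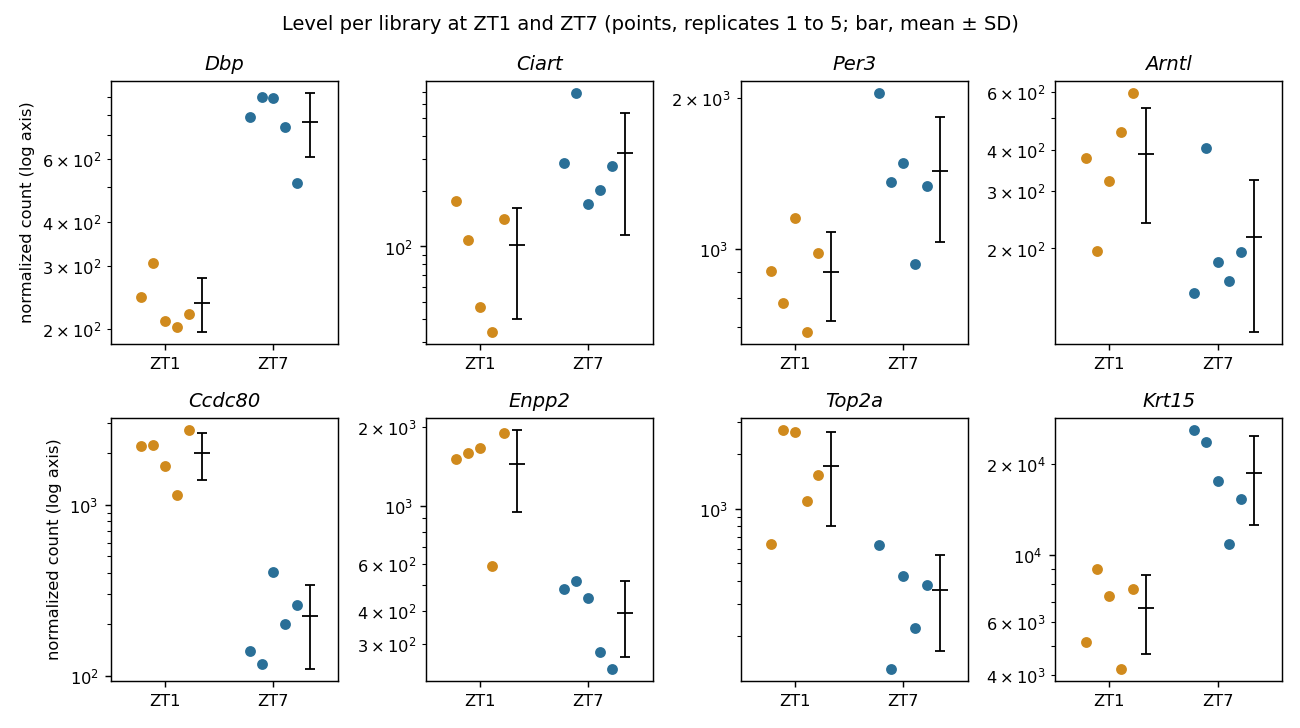
Normalized counts (log axis) of 8 genes in each ZT1 and ZT7 library, with the mean and SD beside the points (n = 5 per time point). Dbp and Krt15 lie higher and Ccdc80, Enpp2 and Top2a lower at ZT7 without overlap, and Ciart, Per3 and Arntl overlap.

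The group with the most transcripts at low p was the fibrillar and fibroblast matrix. Of 47 members tested, 34 had a negative log2 fold change, 14 an unadjusted p under 0.05 in the downward direction (4.19% of all genes) and none in the upward direction (0.781%). Ccdc80 was the member called, and 9 members had all ZT7 libraries below all ZT1 libraries (1.17% of all genes). The median log2 fold change was -0.53, against 0.05 over all genes. Sparc, a collagen-binding glycoprotein, had 15046, 20669, 7840.4, 4047 and 16709 at ZT1 and 4291, 1411, 3973, 2717 and 2389 at ZT7. ZT1 replicate 4 was the lowest of ZT1 and lay within the ZT7 range, below ZT7 replicate 1 only (log2 fold change -2.12 ± 0.48).

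The list holds small leucine-rich proteoglycans, which bind collagen fibrils. Bgn (biglycan) had 10868, 8507, 4159, 3575 and 6848 at ZT1 and 1695, 1023, 3406, 2099 and 2628 at ZT7, Dcn (decorin) had 2292 to 8845 at ZT1 and 277 to 1859.7 at ZT7, and the ranges of neither overlapped. Their log2 fold changes were -1.65 ± 0.42 and -2.37 ± 0.65, and those of Fmod (fibromodulin) and Ogn (osteoglycin) were -2.56 ± 0.75 and -2.66 ± 0.88. Lum, Aspn and Prelp, of the same family, had -1.26 ± 0.82, -1.18 ± 0.72 and -0.20 ± 0.39, with no unadjusted p under 0.05. Of the collagens, those with an unadjusted p under 0.05 were Col6a1 (-2.42 ± 0.68), Col6a2 (-2.22), Col6a3 (-1.79), Col3a1 (-2.50), Col1a2 (-1.57) and Col5a2 (-1.43). Fbn1 (fibrillin-1) and Eln (elastin), the elastic fibre genes, had -1.05 and -0.94. Apart from Lum, Aspn and Prelp, these genes had an unadjusted p under 0.05. The collagen genes Col1a1, Col5a1, Col5a3, Col12a1 and Col14a1 of the list did not reach it. In all, 13 of the 47 members had a positive estimate, up to 1.21, and only Ccdc80 passed the adjusted threshold.

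The 20 fibroblast markers, of which 10 are also in the matrix list, had 13 negative and 7 positive estimates with a median of -0.41. Of these, 6 had an unadjusted p under 0.05 and a lower level at ZT7 (4.19% of all genes). The highest estimate was 1.26 ± 1.78 for Sfrp4. Dpt (dermatopontin) had 259, 351, 141, 145 and 488 at ZT1 and 1.23, 1.72, 25.4, 34.2 and 69.5 at ZT7. It had under 2 normalized counts in ZT7 replicates 1 and 2. Without these 2 libraries the count of matrix genes lower at an unadjusted p under 0.05 was 7 instead of 14, where the share of all genes was 5.32% instead of 4.19%. Without ZT1 replicates 2 and 5 it was 12, where the share of all genes was 1.005%. The fibroblast marker median was 0.09 without ZT7 replicates 1 and 2, so its sign rested on these libraries. Of the 19 basement membrane genes, which endothelial cells also make, 15 had a negative estimate (47.5% of all genes). Col4a1 alone had an unadjusted p under 0.05, where 4.19% of all genes were lower. It had 2897 to 6133 at ZT1 and 1569 to 2744 at ZT7 and a log2 fold change of -0.98 ± 0.37. Lamb1, Col4a2 and Agrn had -0.71, -0.70 and -0.61.

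Cell cycle genes pointed the same way. Of 30 tested, 28 had a negative log2 fold change with a median of -0.93, 8 had an unadjusted p under 0.05 in that direction (4.19% of all genes), and for 7 all ZT7 libraries lay below all ZT1 libraries (1.17% of all genes). Mki67, the proliferation marker Ki-67, had 1140.4, 1229.6, 1857, 1526 and 876 at ZT1 and 573, 168, 633, 511 and 540.2 at ZT7. All ZT7 libraries were under 700 and all ZT1 libraries over 800 (log2 fold change -1.45 ± 0.42, adjusted p = 0.684). Ccnb1, the mitotic cyclin B1, had 288 to 560.3 at ZT1 and 30.3 to 139.6 at ZT7 (-2.55 ± 0.72), and Tpx2, a spindle factor, 183 to 678 at ZT1 and 38.1 to 173 at ZT7 (-1.96 ± 0.56). Cdc20, Birc5, Ccna2 and Cenpe, all needed in mitosis or S phase, had -1.19, -1.68, -1.30 and -1.46. Ccnd1, the cyclin of G1, was higher at an unadjusted p under 0.05 (0.781% of all genes), with an estimate of 1.04 ± 0.49. Cdkn1a, the cell cycle inhibitor p21, named after its value was seen, had 0.03 ± 0.41. The downward count was 6 without ZT7 replicates 1 and 2 and also 6 without ZT1 replicates 2 and 5, where 5.32% and 1.005% of all genes were lower at this threshold. No cell cycle gene was called with edgeR and all libraries. DESeq2 called Top2a, and on ZT1 and ZT7 alone it also called Ccnb1, Tpx2 and Mki67 among the genes named here.

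Genes of redox defence and aldehyde detoxification had a median of -0.49, with 19 of 23 estimates below 0 and 6 of them at an unadjusted p under 0.05 (4.19% of all genes). Aldh3a1, an aldehyde dehydrogenase of barrier epithelia, had 2238, 1999.6, 2810.5, 3558 and 2416 at ZT1 and 1764, 1713, 1259, 1358 and 1380.1 at ZT7. The ranges did not overlap, and the log2 fold change was -0.80 ± 0.34 (adjusted p = 0.909). Gpx3, the secreted glutathione peroxidase, had -1.76 ± 0.52, Cyp1b1 -1.43 ± 0.46 and the glutathione transferase Gsta3 -1.35 ± 0.45, and Sod1 and Aldh2 had -1.36 and -0.76. Of 26 genes of lipid uptake and handling, Scd1 and Fasn, which desaturate and build fatty acids, had an unadjusted p under 0.05. Both were lower at ZT7, as were 4.19% of all genes at this threshold. Scd1 had 11763, 9549, 10255, 10898 and 10603 at ZT1 and 2015, 10152, 4989, 4306 and 4753 at ZT7. Apart from ZT7 replicate 2, which matched the ZT1 level, the ZT7 libraries of Scd1 were at most 4989 (-1.02 ± 0.39). Fasn had -1.02 ± 0.43, Srebf1, which regulates both, -0.82 ± 0.40, and the receptor gene Lrp1 -1.21 ± 0.64.

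The keratinocyte markers had the opposite sign. Of 24 tested, 19 had a positive log2 fold change with a median of 0.67, and 6 had an unadjusted p under 0.05 in that direction (0.781% of all genes). Besides Krt15 and Dsg1a these were Ly6d (1.68 ± 0.51), Krt10 (3.09 ± 1.01), Dmkn (1.96 ± 0.75) and Perp (0.88 ± 0.43). Krt10, the keratin of differentiating epidermis, had 1321, 1075, 2675, 415 and 170.0 at ZT1 and 3945, 35138, 2930.2, 4328 and 1901 at ZT7. ZT7 replicate 2 stood far above the rest, and the ranges overlapped through ZT1 replicate 3. Krt79, a keratin of hair follicle and gland openings, ran the other way, with 1933 to 3493 at ZT1 and 747 to 2535 at ZT7 and a log2 fold change of -1.09 ± 0.38. Without ZT7 replicates 1 and 2 the upward count was 2 (0.436% of all genes in that fit) and the median 0.33.

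Genes of lymphatic identity had a median of -0.43, with 17 of 23 estimates below 0 (47.5% of all genes). In each direction 1 member had an unadjusted p under 0.05, where 0.781% of all genes were higher and 4.19% lower. Ackr4, the scavenging receptor for CCL19 and CCL21, had 182, 455, 211, 153 and 31.1 at ZT1 and 768, 996, 399.9, 293 and 217 at ZT7. The 2 ranges overlapped between 217 and 455 (log2 fold change 1.37 ± 0.50, adjusted p = 0.836). Nrp2, the coreceptor for VEGF-C, had 2157, 6839, 2759, 2205 and 4633 at ZT1 and 2240.3, 2384, 2008, 1659 and 1114 at ZT7, and ZT1 replicates 2 and 5 were the highest (-0.98 ± 0.41). Prox1 had -0.65 ± 0.32 and Foxp2 -0.90 ± 0.44. For Prox1, ZT7 replicate 2 exceeded ZT1 replicates 1 and 4, and the other ZT7 libraries lay below all of ZT1.

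Molecules through which dendritic cells enter lymphatic vessels were of particular interest to the study. A list of 27 genes was drawn up around them, and it also holds genes that the paper does not name, such as Spns2 and S1pr1. The paper examined CCL21 and CD99, which are not covered here. Cd99 was missing from the symbols, and Ccl21a, Ccl21b and Ccl21c did not enter the test. The remaining 23 genes of the list were tested. Of these, 15 had a negative estimate (47.5% of all genes), and the median was -0.18. Alcam, an adhesion molecule of the immunoglobulin family, was the only member with an unadjusted p under 0.05, where 4.19% of all genes were lower. It had -1.86 ± 0.85, with 167 to 1340.4 at ZT1 and 33.7 to 311 at ZT7. Lyve1 had 15939.5, 24177, 16550.0, 16145 and 26809 at ZT1 and 12807, 29894, 11338, 12559.9 and 6393 at ZT7. The ZT7 range of Lyve1 enclosed the whole ZT1 range (log2 fold change -0.45 ± 0.44, adjusted p = 0.999). F11r, encoding JAM-A, had 3004 to 4370.0 at ZT1 and 3156 to 6455 at ZT7 and a log2 fold change of 0.27 ± 0.37. Pecam1 (CD31), by which the cells were also sorted, had 4705, 4182, 4516, 4284 and 4839 at ZT1 and 2769, 4162, 4028, 2841 and 2394 at ZT7. The ZT7 libraries all lay below the lowest ZT1 library, narrowly so for ZT7 replicate 2, and the log2 fold change was -0.48 ± 0.30. Cdh5 (VE-cadherin), Spns2 (the exporter of sphingosine-1-phosphate) and Sema3a had -0.86 ± 0.45, -0.45 ± 0.33 and -0.36 ± 0.37.

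None of the 19 junction genes and none of the 25 integrin subunits had an unadjusted p under 0.05, and their medians were -0.01 and -0.01. The junction genes Gja4, Tjp1 and Ctnnd1 had 0.56, -0.42 and -0.42, and Itga10, Itgav, Itgb3 and Itga6 had -1.62, -0.79, -0.55 and -0.28. Among 27 vascular growth factors, receptors and their targets, Efnb2, the arterial and lymphatic valve ephrin, had 2687, 3340.0, 3668, 3644 and 1822 at ZT1 and 1172, 1632, 2139, 1634 and 1758 at ZT7. Only ZT1 replicate 5 lay within the ZT7 range (-0.86 ± 0.29). Hes1, a Notch target, had 1751, 29072, 4825, 1877 and 40247 at ZT1 and 8797, 1342, 1019.8, 3202 and 1131 at ZT7. ZT1 replicates 2 and 5 stood far above all other libraries, and the log2 fold change was -2.33 with all libraries and 0.13 without these 2. Vegfa had -0.90 ± 0.44.

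Genes that respond to glucocorticoids, the adrenal hormones whose daily peak precedes the active phase, had a median of 0.42, with 12 of 15 estimates above 0 (52.5% of all genes) and 3 of them at an unadjusted p under 0.05 (0.781% of all genes). Cebpd had 739, 825, 889, 706 and 618 at ZT1 and 1258, 1864, 958, 1585 and 1089 at ZT7. Every ZT7 library exceeded every ZT1 library (0.84 ± 0.31, adjusted p = 0.836). Slc10a6 had 1.07 ± 0.34, and Tsc22d3 (GILZ), the anti-inflammatory leucine zipper, had 1.14 ± 0.48 with 907 to 1833 at ZT1 and 1155 to 6385 at ZT7. Ddit4 had 0.94 ± 0.47, Fkbp5 0.16 ± 0.32, and the clock gene Per1, also a target of this receptor, 0.58. Without ZT7 replicates 1 and 2 the median of the list was 0.15, with 9 estimates above 0.

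Immediate early genes, whose transcripts also appear during tissue digestion, had a median of -0.30. Of 22 estimates, 17 were below 0 (47.5% of all genes). Egr3 had 811, 263, 759, 1059 and 349.6 at ZT1 and 104, 133, 334, 203 and 265 at ZT7, and its ranges overlapped through ZT1 replicate 2 (-1.64 ± 0.62). Ier2 had 1681 to 6116 at ZT1 and 1045 to 2385 at ZT7, Fosb had a log2 fold change of -0.85 ± 0.39, and Fosl2 had -0.87 ± 0.45. No heat shock or cold-inducible gene reached an unadjusted p under 0.05 (16 tested, median -0.19), with 0.71 for Hspa1b, -0.92 for Hsp90ab1, -0.53 for Bag3 and -0.55 for Hspd1. Among 21 cytokine and NF-κB feedback genes, Nfkbiz had -0.83 ± 0.37 and Birc3 1.22 ± 0.57, and Nfkb1 and Tnfaip3 had -0.59 and -0.97.

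Of 18 antigen presentation genes, 16 had an estimate above 0 (52.5% of all genes) and 2 of these an unadjusted p under 0.05 (0.781% of all genes), with a median of 0.48. Tap2, a subunit of the peptide transporter, had 539, 411, 383, 424 and 309 at ZT1 and 801, 1644, 597, 629.8 and 653 at ZT7. The ranges did not overlap, with ZT7 replicate 2 far above the rest (1.07 ± 0.41, adjusted p = 0.836). Psmb8, an immunoproteasome subunit, had 1.03 ± 0.44, and the class I genes H2-K1 and H2-T23 had 0.55 ± 0.33 and 0.52 ± 0.36. Without ZT7 replicates 1 and 2 none of the list had an unadjusted p under 0.05. Cytosolic ribosomal protein genes had a median of -0.52, with 71 of 82 estimates below 0 (47.5% of all genes). Only Rpl13a had an unadjusted p under 0.05, where 4.19% of all genes were lower. Rpl13a had 5192, 29778, 11385, 6623 and 26876 at ZT1 and 14603, 3526, 3637, 4924 and 3722 at ZT7, so that ZT7 replicate 1 and ZT1 replicates 2 and 5 stood above the others, and Rps19 (-1.38), Rpl7 (-0.93) and Rpl9 (-1.08) had their highest ZT7 value in that library too. Without ZT1 replicates 2 and 5 the ribosomal median was -0.05, and without ZT7 replicates 1 and 2 it was -1.36, with 40 members lower at an unadjusted p under 0.05 (5.32% of all genes in that fit).

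Lists for leukocytes (18 tested), blood endothelium (15), mural cells (12), melanocytes and Schwann cells (13) and red blood cells (3) held no member with an unadjusted p under 0.05. Single libraries carried some of their levels, such as ZT1 replicate 5 for Dct, a melanocyte enzyme, with 41.2, 3.36, 3.01, 1.55 and 2689 at ZT1 and 33.2, 196, 16.9, 75.8 and 29.6 at ZT7, and ZT1 replicate 2 for Tyrobp, a myeloid adaptor, with 18.6, 502, 3.01, 10.8 and 0 at ZT1 and 24.6, 2.29, 0, 34.2 and 27 at ZT7. The remaining ZT1 libraries were at most 41.2 for Dct and 18.6 for Tyrobp. Of the muscle, fat and cartilage markers, Acan (aggrecan) had -2.27 ± 0.79 with 383 to 2238 at ZT1 and 7.43 to 316 at ZT7, and Comp -0.97 ± 0.39. Both encode matrix proteins. None of the 13 mitochondrially encoded genes appeared as a symbol in the count tables.

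**Figure D4:**
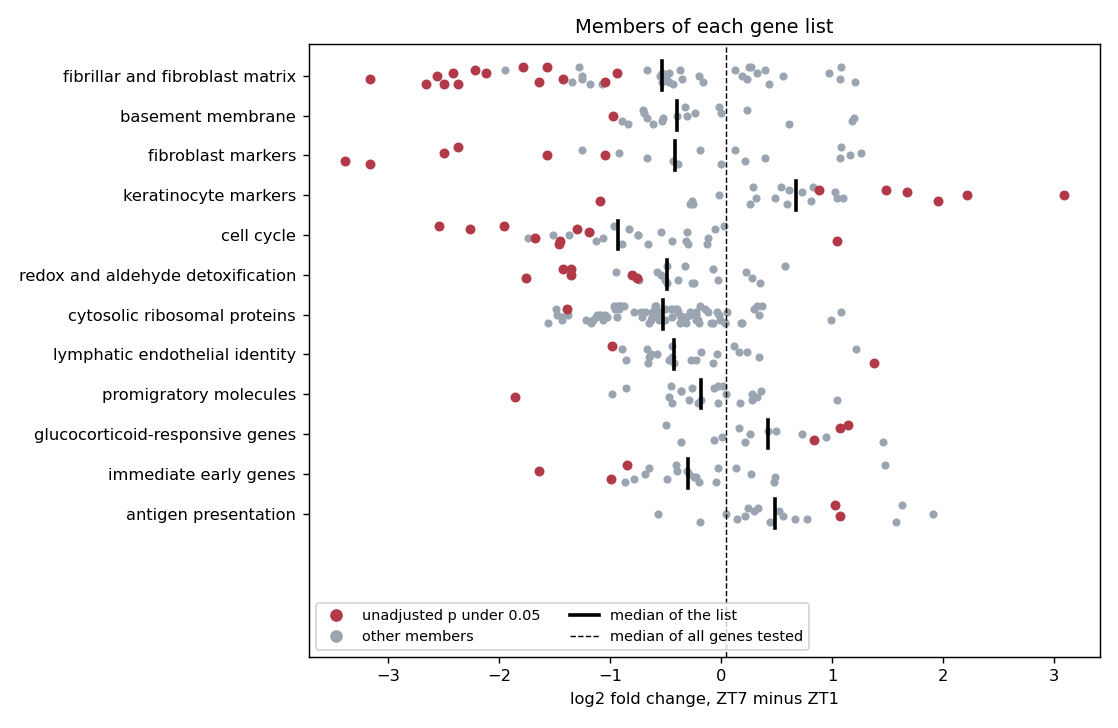
Log2 fold change (ZT7 minus ZT1) of every tested member of 12 gene lists, with the list median as a black bar and the median of all genes (0.05) as a dashed line. Members at an unadjusted p under 0.05 are red, lie mostly to the left in the matrix (14) and cell cycle (8) lists, and lie mostly to the right in the keratinocyte list (6).

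Whether the step from ZT1 to ZT7 differed from the step of equal length from ZT13 to ZT19 was tested as a difference of differences. With edgeR this called 11 genes (0.0573%), 2 of them positive, and 2741 genes (14.3%) had an unadjusted p under 0.05. The balance of directions depended on the method. DESeq2 called 489 positive and 117 negative genes. At an unadjusted p under 0.05, edgeR gave 1604 positive and 1137 negative genes. With the log2 odds of assignment to a gene as covariate it gave 399 and 2240. For Dbp the mean normalized count was 237 ± 41.5 at ZT1 and 766 ± 156 at ZT7, and it was 457 ± 70.6 at ZT13 and 192 ± 60.1 at ZT19. The mean of Dbp was thus higher at the end of the first interval and lower at the end of the second, and the log2 difference was 2.94 ± 0.45 (adjusted p = 0.00581). Its adjusted p stayed under 0.05 in all 31 alternatives. Aldh3a1 ran the other way, with 2604 ± 609.6 at ZT1 and 1495 ± 228 at ZT7 and 1128 ± 525.9 at ZT13 and 5655 ± 2105 at ZT19 (log2 difference -3.13 ± 0.48, adjusted p = 0.00581), and was called in 30 of 31 alternatives, the exception being the marker scores as covariates (adjusted p = 0.0648).

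The other genes called with edgeR had a negative difference, apart from Fam131b, while most of those called with DESeq2 were positive. Ccdc80 had 740.2 ± 435 at ZT13 and 1328 ± 874 at ZT19 (log2 difference -4.01 ± 0.71), Krt79 920.4 ± 356 at ZT13 and 3569.6 ± 1608 at ZT19 (-3.05 ± 0.54), Enpp2 810.2 ± 255 at ZT13 and 1555 ± 810.1 at ZT19 (-2.82 ± 0.53), and Top2a 297 ± 151 at ZT13 and 643 ± 226 at ZT19 (-3.38 ± 0.64). Each of these was lower on average at ZT7 than at ZT1 and higher at ZT19 than at ZT13. Sostdc1, an inhibitor of BMP and Wnt signals, had 1214 ± 603 at ZT1 and 1094 ± 628 at ZT7 and 247 ± 118 at ZT13 and 2246 ± 1095 at ZT19. Its log2 fold change from ZT1 to ZT7 was -0.15 ± 0.43, and the difference of differences was -3.33 ± 0.63. The cyclin gene Ccnb1, the α-tubulin gene Tuba1c and the collagen gene Col6a1 had differences of -5.20 ± 1.02, -4.08 ± 0.80 and -4.92 ± 0.97. Of 31 alternatives, Ccdc80 and Krt79 passed in 19, Enpp2 and Sostdc1 in 14, Top2a in 13, Tuba1c in 12, Ccnb1 in 9 and Col6a1 in 8. Fam131b had 0 counts in all 5 ZT19 libraries and 2.39 to 42.5 at ZT1 and 4.57 to 190.4 at ZT7, so its fitted difference is no bound and is not read here. The keratinocyte list summed to 19447 to 46417 at ZT13 and to 114016 to 240712 at ZT19, and the share of reads assigned to genes was 20.1% to 79.9% at ZT13 and 35.0% to 81.6% at ZT19, with overlap. With the marker scores as covariates, 5 genes were called.

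**Figure D5:**
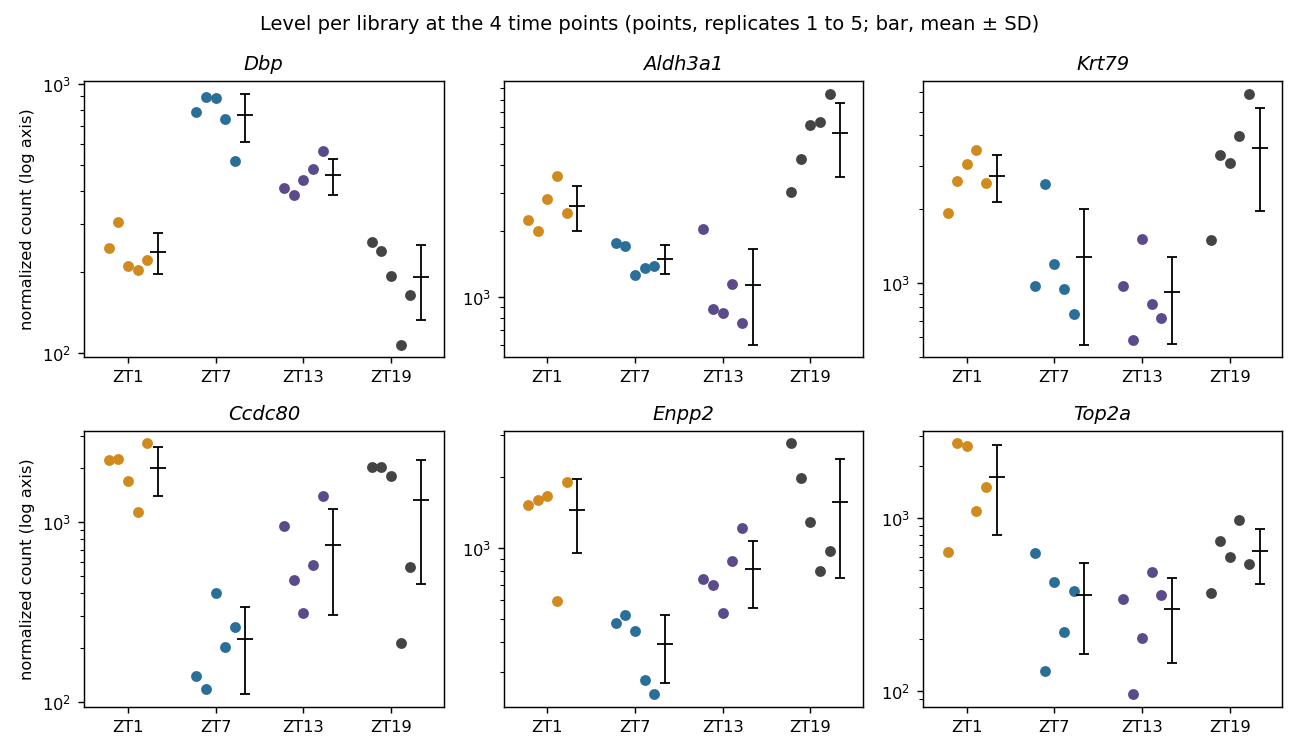
Normalized counts (log axis) at ZT1, ZT7, ZT13 and ZT19 of 6 genes whose change from ZT1 to ZT7 differed from that from ZT13 to ZT19, with each library as a point and the mean and SD beside them (n = 5). Dbp has its highest mean at ZT7, and the other 5 genes have a lower mean at ZT7 than at ZT1 and a higher mean at ZT19 than at ZT13.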

How the data were processed

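RNA of sorted dermal LECs was amplified as full-length cDNA and sequenced by the authors. According to the submitters' processing notes they used STAR, HTSeq 1.0.0 and DESeq2 2.11.40.6 with the build mm10. The paper gives these numbers as Galaxy versions. The deposited values are raw read counts per gene symbol, without normalization, in 1 file per library. Summary lines for reads on no feature, ambiguous, unaligned or not uniquely aligned were kept out of library sizes and tests. The cDNA kit does not mark strand, and no molecular identifiers were used, so depth covers counting error only, and 3 counts make up 1.77e-05% to 6.7e-05% of a library here. Each library is 1 pool of sorted cells.

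Counts of all 20 libraries were fitted in R 4.3.3 with edgeR 4.0.16 (TMM, filterByExpr by time point, quasi-likelihood F-test), and ZT7 minus ZT1 was tested with Benjamini-Hochberg adjustment at 0.05 over 19209 genes. A normalized count is the raw count scaled by the TMM-adjusted depth of its library, with the 20 depths set to a geometric mean of 1. SE is the size of the log2 fold change divided by the square root of F. Alternatives were DESeq2 1.42.0, limma-voom 3.58.1 with sample weights, RLE and upper quartile scaling, no filter or a filter of 50 counts in 5 libraries, the log2 odds of assignment to a gene or the marker scores (mean centred log2 normalized counts, pseudocount 1) as covariates, the replicate number as a block, ZT1 and ZT7 alone, and each library left out. Leaving out ZT7 replicates 1 and 2, or ZT1 replicates 2 and 5, together was added after seeing the data. Library properties were compared by exact permutation in Python 3.11.15 with scipy 1.17.1. The edgeR fit was also run on simulated counts.

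Named genes were those called, the 12 with the smallest p in each direction at a mean of at least 50 normalized counts, all members of the 3 clock lists, the 6 promigratory genes of smallest p with Lyve1 and F11r, up to 4 per other list, and the first 10 genes of the difference of differences. Further list members are named where they have an unadjusted p under 0.05. Genes withheld from the text are not reported here, and lists are counted without them. The comparison, the lists and the rule were chosen with earlier results of these data known. Gene positions are from GENCODE M21 (GRCm38), in which 94.5% of 24062 symbols were found.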

Additional observations from a re-analysis of the deposited data

Results flagged for a closer look

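Libraries far from their group. For 276 sets of 5 libraries at 1 time point (272 of a named gene and 4 of the log2 total counts or the log2 odds of assignment to a gene), the gap between the extreme library and its neighbour was divided by the range of the set, for genes on the scale of log2 normalized counts with a pseudocount of 1. Independent sets of normal values would exceed Dixon's 95% critical value of 0.710 in 1 in 20, or about 13.8 sets. The genes were chosen on these data and several vary together, so a larger number is not read as an excess. The ratio exceeded the critical value in 23 sets. ZT7 replicate 2 was the extreme library in 8 of them, being lowest for S100b (ratio 0.915, at 0 counts), Bhlhe41 (0.770), Fosb (0.784), Mki67 (0.839) and Fam131b (0.735) and highest for Arntl (0.715), Gpx3 (0.750) and Krt10 (0.718). ZT7 replicate 1 was highest for Usp2 (0.781), Rpl13a (0.765), Rps19 (0.754), Rpl7 (0.767) and Rpl9 (0.903) and lowest for Tnfaip3 (0.713) and Pmel (0.808). ZT1 replicate 2 was highest for Usp2 (0.915), Col4a2 (0.716) and Psmb8 (0.841). ZT1 replicate 5 was lowest for Il20rb (0.715) and Tef (0.712) and highest for Csnk2a1 (0.773). ZT1 replicate 4 was lowest for Enpp2 (0.803), and ZT7 replicate 3 highest for Nfkb1 (0.800). ZT7 replicates 1 and 2 also had the highest shares of reads on genes of the ZT1 and ZT7 libraries. With the log2 odds of this share as covariate, edgeR called 4 genes, Ccdc80, Cpe, Dbp and Enpp2. Without these libraries it called none. Whether the share bears on the outlying values was not tested.

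Steps that differed between the light and the dark interval. By the edgeR test of the difference of differences, the log2 change from ZT1 to ZT7 differed from that from ZT13 to ZT19 by 2.94 for Dbp and 11.11 for Fam131b, and by -3.13 for Aldh3a1, -4.01 for Ccdc80, -3.05 for Krt79, -2.82 for Enpp2, -3.33 for Sostdc1, -3.38 for Top2a, -5.20 for Ccnb1, -4.08 for Tuba1c and -4.92 for Col6a1. The value of Fam131b rests on 0 counts in all ZT19 libraries and is no measure of size.

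Reads outside the comparisons. Across the 10 libraries, a median of 75.9% of uniquely aligned reads were assigned to no feature by the counting, and these reads entered no test.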

How the results depend on the processing

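Genes called between ZT1 and ZT7 numbered 1 with edgeR, 14 with DESeq2, 108 with DESeq2 on the 10 libraries alone, 8 with limma-voom and 4 with the log2 odds of assignment to a gene as covariate. No gene was called with RLE size factors, with the marker scores as covariates, without ZT7 replicates 1 and 2 or without ZT1 replicates 2 and 5, and 0 to 1 when each library was left out. The difference of differences called 11 genes with edgeR (2 positive), 606 with DESeq2 (489 positive) and 362 with limma-voom (124 positive). It called 5 with either covariate, 4 with RLE size factors, 3 with upper quartile scaling and 2 with a filter of 50 counts. Without ZT1 replicates 2 and 5 it called 2, and 2 to 21 when each library was left out. With the replicate number as a block, 0 genes were called between ZT1 and ZT7 and 2 for the difference of differences. With this block on ZT1 and ZT7 alone, edgeR called 1 gene, Ccdc80 (adjusted p = 0.026). Same-numbered libraries deviated with correlations of -0.35 to 0.27, with 2 of 5 over 0.1. Of 10 libraries, 1 was closest to its own number, so the numbers were not taken as pairs. The share of higher genes among those at an unadjusted p under 0.05 was 15.7% with TMM, 48.6% with upper quartile scaling, 34.3% with RLE, 35.9% with the filter of 50 counts, 42.1% with DESeq2 and 32.1% with limma-voom, and the median of all genes was 0.26, 0.24 and 0.19 with upper quartile, DESeq2 and RLE scaling, against 0.05 with TMM. The cause of these differences was not tested.

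Of 3571 alternative values of 146 gene results, 3334 kept their direction and side of the threshold, 52 passed it newly, 146 lost it and 39 changed sign, in 13 results. With the marker scores as covariates the log2 fold change was -0.75 for Rora, 0.0336 for Cry2, 0.61 for Pdgfrb, -0.47 for Pmel and -0.51 for Alas2. Without ZT7 replicates 1 and 2 it was -0.51 for Rora, 0.20 for Bhlhe41, -0.13 for F11r and 0.27 for Scn7a. Without ZT1 replicates 2 and 5 it was 0.12 for Bhlhe41, 0.00997 for Foxp2, 0.13 for Hes1, 0.68 for Tyrobp, 2.18 for Dct and 0.28 for Sostdc1. With upper quartile scaling it was 0.0517 for Cry2, 0.11 for Bhlhe41, 0.0187 for Scn7a and 0.0643 for Sostdc1, with DESeq2 0.0188 and with RLE 0.0186 for Bhlhe41, and with limma-voom 0.30 for Bhlhe41, 1.85 for Dct, 0.0892 for Scn7a and 0.0364 for Sostdc1. With the replicate block on ZT1 and ZT7 alone it was 0.12 for Cry2, 0.11 for Tyrobp and 1.63 for Dct. When each library was left out the differences ranged from -0.24 to 0.24 for log2 total counts, -0.43 to 0.45 for the log2 odds of gene assignment, -0.21 to 0.48 for Rora, -0.40 to 0.26 for Cry2, -0.43 to 0.22 for Bhlhe41, -2.99 to 1.09 for Tyrobp, -3.81 to 2.495 for Dct and -0.57 to 0.0606 for Sostdc1. None of these log2 fold changes between ZT1 and ZT7 was called with edgeR and all libraries. The depth of 4475111 to 16936960 counts and the spread between pools limit what a comparison of 5 with 5 pools can show.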
